A study of Mus musculus with 2 samples.

Results

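The 4E-BPs and the subunits of the eIF4F cap-binding complex were examined through 10 genes in microglia of the mouse spinal cord: Eif4ebp1, Eif4ebp2, Eif4ebp3, Eif4e, Eif4e2, Eif4g1, Eif4g2, Eif4g3, Eif4a1 and Eif4a2. They were taken by symbol, not by level, from the 32285 genes in the count tables, and each had 1 row. eIF4E binds the cap at the start of an mRNA, eIF4G is the scaffold that joins eIF4E to the RNA helicase eIF4A, and the assembled eIF4F complex recruits the small ribosomal subunit. The 4E-BPs hold eIF4E away from eIF4G until the kinase complex mTORC1 phosphorylates them, which lets cap-dependent translation proceed. The family also has divergent members: Eif4e2 encodes 4EHP, a cap-binding protein used mainly in translational repression, and Eif4g2 encodes DAP5, an eIF4G relative that lacks the eIF4E-binding region.

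The 2 genotypes were compared, with 1 library each. The 4E-BP1–cKO library came from Eif4ebp1fl/fl:TMEM119CreERT2 mice, in which 4-hydroxytamoxifen activates a Cre recombinase driven by the microglial gene Tmem119. The control library is labelled WT, and the study's own legend names its mice as Eif4ebp1fl/fl, that is, floxed without Cre. Males of 8 to 10 weeks were used. The methods give 4-hydroxytamoxifen from postnatal day 4 to day 9 without saying whether controls were dosed, and the sources used here do not give the number of mice per library. Lumbar cord was dissociated, and live CD45lo CD11bhi CX3CR1hi cells were sorted and captured with a droplet kit that reads the 3′ end of each transcript. The assay counts unique molecular identifiers (UMIs), so each captured mRNA molecule counts once. The study's genotyping places the floxed allele at exon 2 of Eif4ebp1, and counts from the 3′ end do not check a deletion there.

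Of 1216 control barcodes 1147 were kept, and of 474 4E-BP1–cKO barcodes 445, those in which over 300 genes were detected and mitochondrial genes took less than 5% of UMIs. Kept cells held 4803562 and 1734332 UMIs, with medians of 3053 and 2776 UMIs per cell, and no barcode sequence occurred in both libraries. At least 3 of 8 microglial markers (such as P2ry12 and Tmem119) were detected in 94.1% of control and 89.4% of 4E-BP1–cKO cells. No list for another cell type reached 3 detected markers in more than 3 cells of either library, so the label held. The libraries differed in their cell mix. The median share of UMIs on ribosomal protein genes was 2.22% in control and 3.53% in 4E-BP1–cKO cells, and the median share on 11 immediate early genes was 1.22% and 1.63%. As each genotype is a single library, differences between them could not be tested. The 95% intervals given are exact (Poisson for levels, Clopper-Pearson for shares, conditional Poisson for ratios) and cover counting error only, not variation between animals. Those of levels, ratios and shares of UMIs take UMIs as independent. They leave out unevenness of counts between cells, so they can be too narrow.

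The members span a wide range of gene sizes in the RefSeq annotation of GRCm38.p6, the build named mm10 in the study. Eif4ebp1 lies at chr8:27260327-27275656, Eif4ebp2 at chr10:61428491-61452790 and Eif4ebp3 at chr18:36664060-36666324. Eif4e lies at chr3:138526191-138559696 and Eif4e2 at chr1:87213911-87240488. Eif4g1 lies at chr16:20672720-20692883, Eif4g2 at chr7:111067985-111083030 and Eif4g3 at chr4:137991779-138207086. Eif4a1 lies at chr11:69666936-69672423 and Eif4a2 at chr16:23107468-23114132. Eif4g3 was by far the longest, at 215.3 kb, against 2.3 to 33.5 kb for the other 9. The sources used here do not say whether reads within introns were counted, and a long gene could gain UMIs from them. Eif4a2 overlaps Rfc4, which had 35 UMIs over both libraries, and Eif4g3 overlaps 1700095J12Rik, which had 6. Reads from such overlapping genes could have been split between them.

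The helicase gene Eif4a1 and the scaffold genes Eif4g2 and Eif4g3 were the most abundant members and the 4E-BP genes the least. Levels are UMIs per 1000000 UMIs of the library (CPM) and were not divided by gene length, because the assay counts 3′ ends. Eif4a1 had 1613 UMIs in the control library, a level of 336 CPM (320 to 353), and 671 UMIs in the 4E-BP1–cKO library, 387 CPM (358 to 417). It ranked highest in both. Eif4g2 followed with 271 CPM (257 to 286) and 319 CPM (293 to 347). Eif4g3 had 251 CPM (237 to 266) in control cells, an interval that overlaps that of Eif4g2, and 216 CPM (194 to 239) in 4E-BP1–cKO cells, where the intervals of the 2 scaffolds no longer overlap.

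The middle of the order was closely packed. Eif4a2, the second helicase gene, had 610 UMIs (127 CPM) in control and 211 (122 CPM) in 4E-BP1–cKO cells. Eif4g1, the canonical scaffold, had 562 UMIs (117 CPM) and 199 (115 CPM). Eif4e, the cap-binding subunit itself, had 512 UMIs (107 CPM, interval 97.6 to 116) and 234 (135 CPM, 118 to 153). Each of these genes overlapped its neighbour in the order in both libraries, and Eif4e moved from the sixth place in control to the fourth in 4E-BP1–cKO cells within that group. Eif4e2 (4EHP) was lower, with 281 UMIs (58.5 CPM) and 123 (70.9 CPM).

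Of the 3 4E-BP genes, Eif4ebp2 was the most abundant in both libraries, and not Eif4ebp1, the gene floxed in the study. Eif4ebp2 had 235 UMIs (48.9 CPM, 42.9 to 55.6) in control and 96 UMIs (55.4 CPM, 44.8 to 67.6) in 4E-BP1–cKO cells, overlapping Eif4e2 in both. Eif4ebp1 had 95 UMIs (19.8 CPM, 16 to 24.2) and 51 UMIs (29.4 CPM, 21.9 to 38.7). Eif4ebp3 had 31 UMIs (6.45 CPM, 4.38 to 9.16) and 8 UMIs (4.61 CPM, 1.99 to 9.09), against a floor of 3 UMIs that equals 0.625 and 1.73 CPM. The intervals of these genes did not overlap within either library. All 10 members together made up 1343 CPM in control and 1453 CPM in 4E-BP1–cKO cells.

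**Figure D1:**
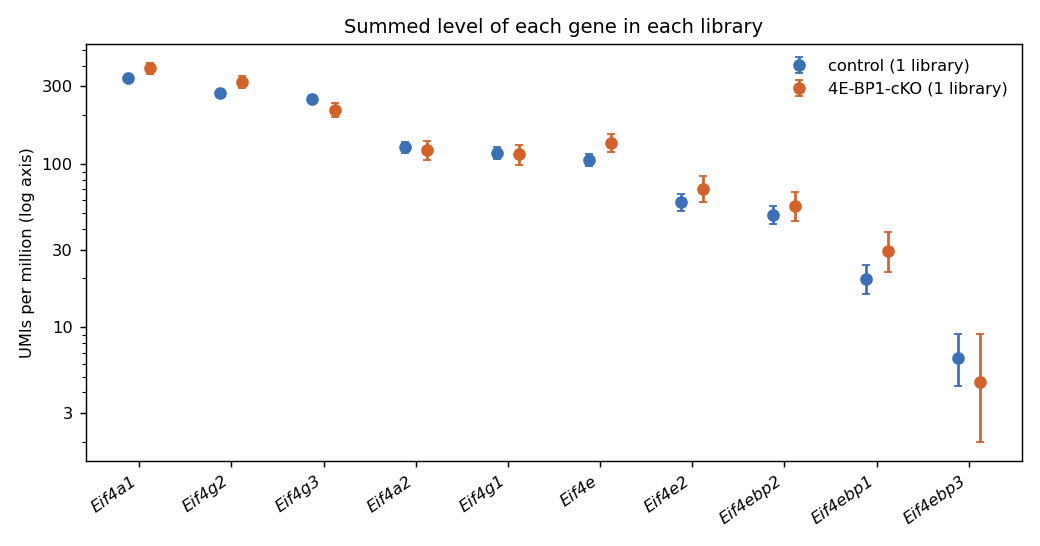
Level of each member in CPM (vertical log axis) in the control (blue) and 4E-BP1–cKO (orange) library, with points for the summed UMIs of 1 library and bars for exact 95% Poisson intervals. Eif4a1 lies highest at 336 and 387 CPM and Eif4ebp3 lowest at 6.45 and 4.61 CPM.

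Within families, the proportions do not depend on the library total. Eif4ebp1 supplied 26.3% (21.8 to 31.2) of the 361 4E-BP UMIs in control cells and 32.9% (25.6 to 40.9) of the 155 in 4E-BP1–cKO cells. Eif4ebp2 supplied 65.1% (59.9 to 70.0) and 61.9% (53.8 to 69.6), and Eif4ebp3 8.59% and 5.16%. Each of these shares had overlapping intervals between the libraries. Eif4a1 supplied 72.6% (70.7 to 74.4) and 76.1% (73.1 to 78.9) of eIF4A UMIs, also overlapping. Eif4e supplied 64.6% and 65.5% of the UMIs of Eif4e and Eif4e2. In the eIF4G family the intervals of 2 genes did not overlap between libraries. Eif4g2 supplied 42.4% (40.7 to 44.2) in control and 49.1% (46.2 to 52.1) in 4E-BP1–cKO cells, Eif4g3 39.3% (37.6 to 41.0) and 33.2% (30.5 to 36.1), and Eif4g1 18.3% and 17.7%. The ratio of all 4E-BP UMIs to Eif4e UMIs was 0.705 (0.615 to 0.808) in control and 0.662 (0.537 to 0.815) in 4E-BP1–cKO cells. In 4E-BP1–cKO cells 51 of the 155 4E-BP UMIs came from the floxed gene Eif4ebp1. Counts from the 3′ end do not show whether those transcripts were intact, so this ratio is not read as a balance of inhibitor and target.

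For each member, cells with a UMI were deeper at the median than cells without one, in both libraries. Eif4a1 was seen in 54.0% of control and 53.7% of 4E-BP1–cKO cells, Eif4g3 in 52.4% and 46.1%, and Eif4g2 in 49.7% and 53.3%. Most members were seen in fewer cells than if their UMIs were dealt to cells by depth alone. That would have given 63.3% of cells in both libraries for Eif4a1, and 57.3% and 58.2% for Eif4g2. Eif4e was seen in 25.6% (23.1 to 28.3) and 26.1% (22.0 to 30.4), and Eif4ebp2 in 15.9% and 16.9%. Eif4ebp1 was seen in 84 of 1147 control cells, 7.32% (5.88 to 8.99), and in 42 of 445 4E-BP1–cKO cells, 9.44% (6.89 to 12.5). The cells with an Eif4ebp1 UMI were deep, with a median of 6353 UMIs in control and 5190 in 4E-BP1–cKO, against 2903 and 2614 in the cells without one. A median of 3 members per control cell and 2 per 4E-BP1–cKO cell was detected, and 9.94% and 13.7% of cells had none of the 10.

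Across quartiles of UMIs per cell, set over both libraries at 1659, 2976 and 5500 UMIs, the share of control cells with an Eif4ebp1 UMI was 1.93%, 3.02%, 7.84% and 16.2%, and that of 4E-BP1–cKO cells 3.60%, 6.06%, 11.8% and 17.5%. If the UMIs of the gene were dealt to cells in proportion to depth alone, 2.13%, 4.39%, 7.64% and 16.5% of control cells would have one. Over the quartiles, detection of Eif4ebp1 in control cells thus lay close to what depth gave. Its level varied little, between 16.3 and 20.7 CPM in control and 27.2 and 37.8 CPM in 4E-BP1–cKO cells. Control cells were also divided at ribosomal shares of 2%, 4% and 8%. From the lowest bin up, Eif4ebp1 was seen in 3.10%, 7.04%, 13.3% and 13.2%, against 5.14%, 8.31%, 9.93% and 13.0% from depth. Thinning each cell to 872 UMIs, with 89 control and 70 4E-BP1–cKO cells left out as shallower, would on average leave Eif4ebp1 in 1.45% and 2.51% of cells, Eif4a1 in 22.9% and 24.2%, and Eif4g3 in 19.4% and 16.9%. Single random draws varied around these averages: for Eif4g3 one gave 22.5% and 16%, and another 18.8% and 20%, so the order of the libraries for Eif4g3 was not fixed at this depth.

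**Figure D2:**
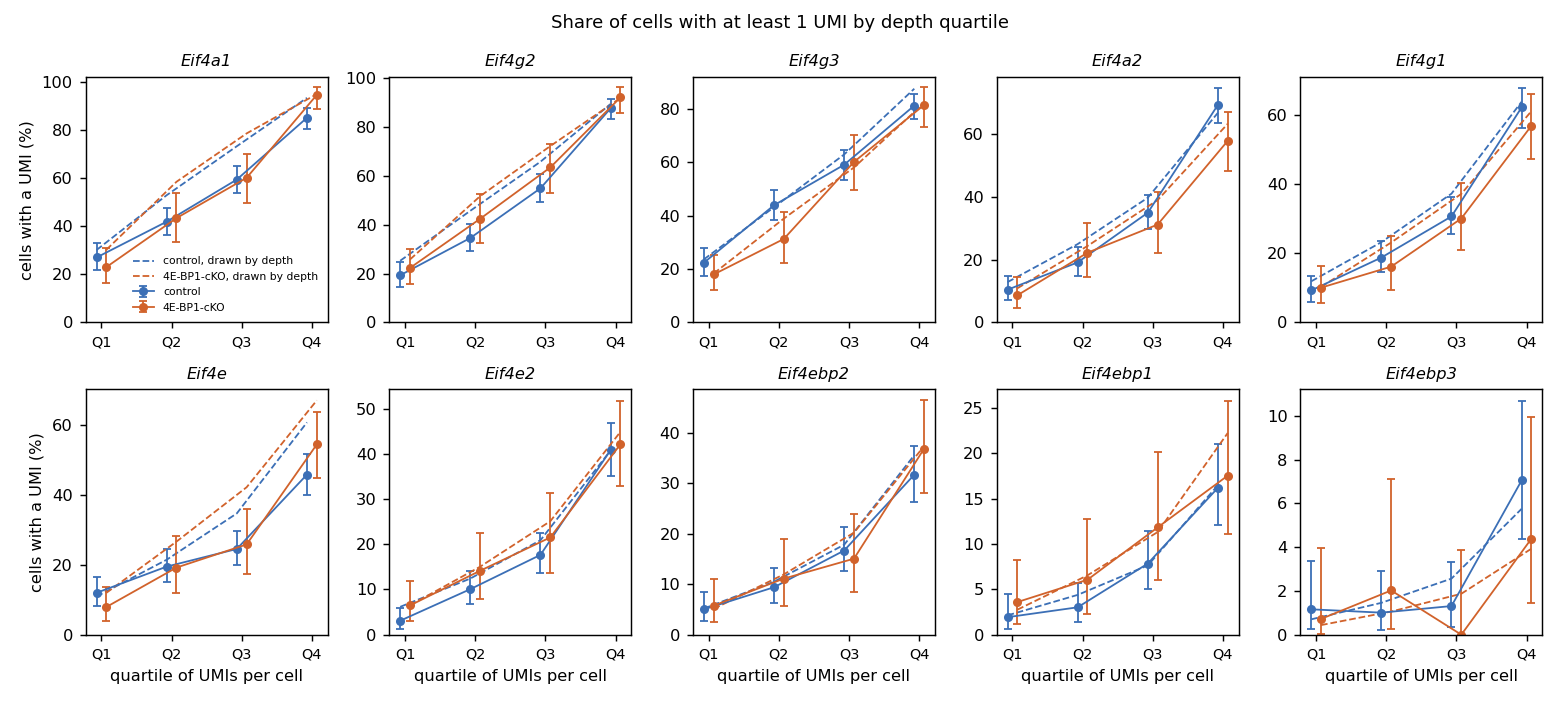
Share of cells with at least 1 UMI of each member (vertical axis, %) by quartile of UMIs per cell (horizontal axis), with exact 95% binomial bars for control (blue) and 4E-BP1–cKO (orange) and dashed lines for the share if UMIs were dealt by depth alone. Eif4ebp1 follows its dashed line in control cells, whereas Eif4e in the deepest quartile lies at 45.8% and 54.4% of cells, below its lines at 60.7% and 67.0%.

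Low detection has to be read beside free RNA in the droplets. The sort held no cell type that should lack these housekeeping genes, so Mbp, a myelin gene of oligodendrocytes, served as the comparator. Mbp had 32.3 CPM and a UMI in 10.2% (8.51 to 12.1) of control cells, and 49.0 CPM and a UMI in 14.8% (11.7 to 18.5) of 4E-BP1–cKO cells, with medians of 6725 and 5633 UMIs in the positive cells. Eif4ebp1 and Eif4ebp3 lay below Mbp in level and in share of cells in both libraries. Mbp was taken to stand for RNA from outside the cell. Free RNA itself was not measured, and Mbp need not set its range for other genes. As free RNA could not be set apart, the cell shares of Eif4ebp1 and Eif4ebp3 are not read as expression by those cells. The summed oligodendrocyte marker list was itself 56.2 CPM in control and 103 CPM in 4E-BP1–cKO cells, and its part in the 4E-BP levels was not tested. The other 8 members were seen in more cells than Mbp in both libraries. Eif4ebp2 was the nearest to it, and its interval of 13.5% to 20.7% in 4E-BP1–cKO cells overlaps that of Mbp.

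Eif4e stood out among the members by the unevenness of its counts over cells. Dealt by depth alone, its UMIs would have reached 32.3% of control and 35.6% of 4E-BP1–cKO cells, but were found in 25.6% and 26.1%, a ratio of observed to depth-based detection of 0.793 and 0.732. Among 1039 control and 937 4E-BP1–cKO genes with a depth-based share within 0.8 to 1.25 times that of Eif4e, the median ratio was 0.858 and 0.867, and 18.4% and 8.22% of these genes had a lower one than Eif4e. At least 5 Eif4e UMIs were found in 11 control cells, which held 16% of its UMIs, and in 9 4E-BP1–cKO cells, which held 25.6%. A single 4E-BP1–cKO cell with 4117 UMIs in all carried 17 of the 234 Eif4e UMIs. Eif4g3 was the opposite case: its ratio was 0.951 and 0.967, and 96.6% and 95.4% of genes in its own band had a lower one.

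Most pairs of members examined were seen in the same cell less often than depth alone would give. Eif4ebp2 and Eif4e, inhibitor and target, were both detected in 55 control cells, against 91.7 from depth, and in 33 4E-BP1–cKO cells, against 41.6. Eif4a1 and Eif4a2 were both detected in 257 and 98 cells, against 320 and 117. For Eif4ebp1 and Eif4ebp2 the counts were 26 and 10, against 23.9 and 13.3. At least 1 UMI of Eif4e, of Eif4a1 and of a scaffold that binds eIF4E (Eif4g1 or Eif4g3) was found in 161 control cells, 14% (12.1 to 16.2), and in 70 4E-BP1–cKO cells, 15.7% (12.5 to 19.5), with medians of 8055 and 7820 UMIs. Depth would have given 240 and 101 such cells. These counts take in the unevenness of each gene alone, so that a shortfall says nothing of 1 gene excluding another.

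Between the libraries, the members were compared by a limit of 1.5-fold. On the log2(CPM + 1) scale, 0 of 10 members were past 1.5-fold in either direction, against 15.6% of the 11784 genes with at least 20 UMIs. That background includes many low counts: with at least 200 UMIs it was 4.40% of 4887 genes. For 10 members a count of 0 is near these shares, so it is not read as a result about them. The median log2 ratio of 4E-BP1–cKO over control was 0.19 for the members and -0.05 for all 11784 genes. Ratios of 6 of the 10 members were above 1, as were those of 5169 of the 11784 genes.

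The ratio of Eif4ebp1 was 1.49 (1.04 to 2.11), a log2 value of 0.55 on the scale with 1 CPM added, higher than that of 95% of the genes tested and in the direction of more UMIs in the knockout library. It lay just inside the 1.5-fold limit, and TMM scaling by edgeR put it at 0.59, just outside, so that 1 member was counted. The value rested on few molecules. One 4E-BP1–cKO cell carried 6 of the 51 UMIs, and without the top cell of each library the ratio was 1.36 (0.931 to 1.96). Weighting the bins of ribosomal share and depth alike in both libraries gave 1.36 as well. Mbp, the comparator taken to stand for free RNA, was also higher in the 4E-BP1–cKO library, at 49.0 against 32.3 CPM. Marker lists of other cell types went both ways. The astrocyte list was higher in the 4E-BP1–cKO library, at 8.65 against 6.04 CPM. The endothelial list was lower there, at 30.6 against 64.3 CPM, as was the erythrocyte list, at 6.34 against 22.3 CPM. The part of free RNA in the Eif4ebp1 ratio was not tested. Because the reads lie at the 3′ end, this ratio says nothing on how many cells carried the deletion.

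Eif4e was 1.27-fold (1.08 to 1.48) higher in the 4E-BP1–cKO library, Eif4g2 1.18-fold (1.06 to 1.30) and Eif4a1 1.15-fold (1.05 to 1.26). The intervals of these genes did not include 1, but each is a difference between 1 library and another. The intervals also leave out unevenness over cells, which was marked for Eif4e. Eif4g3 had a ratio of 0.858 (0.762 to 0.965), the only member whose interval lay below 1. Eif4e2 had 1.21 (0.973 to 1.5), Eif4ebp2 1.13 (0.883 to 1.44), Eif4g1 0.981 (0.830 to 1.15), Eif4a2 0.958 (0.815 to 1.12) and Eif4ebp3 0.715 (0.284 to 1.59), all with intervals on both sides of 1. The direction for Eif4g1 turned when the cell mix was matched, to 1.01, and with TMM scaling, and the other 9 kept theirs under both. The opposite directions of Eif4g2 and Eif4g3 were the same as those between ribosome-rich and ribosome-poor cells below, and the 4E-BP1–cKO library had the higher median ribosomal share. With the cell mix matched the ratios of Eif4g2 and Eif4g3 were 1.14 and 0.887, against 1.18 and 0.858 without matching. The part of cell mix in these differences was not tested.

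**Figure D3:**
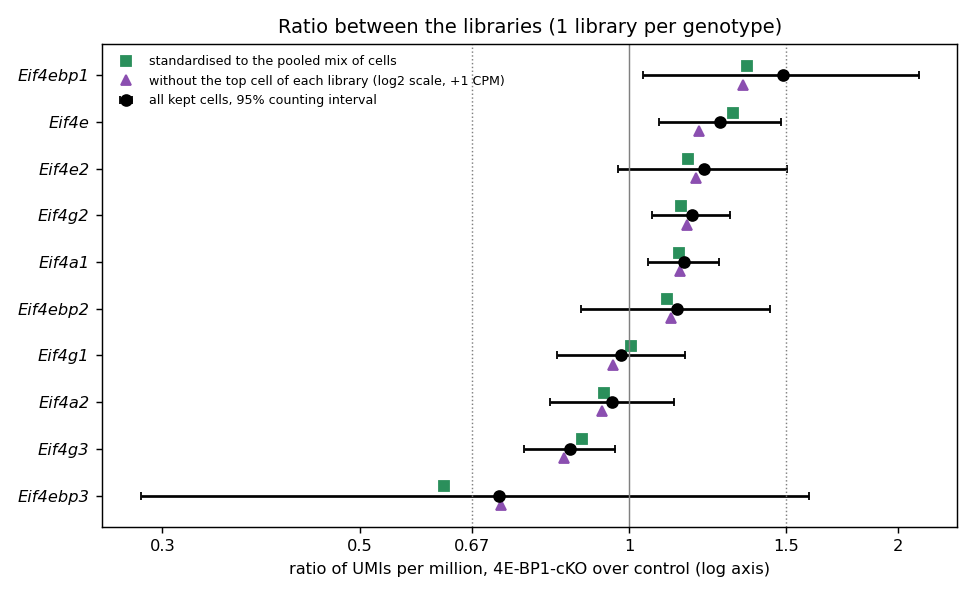
Ratio of CPM, 4E-BP1–cKO over control (horizontal log axis), for each member, with black points for all kept cells and bars for exact conditional 95% intervals, green squares for ratios matched for cell mix and purple triangles for ratios without the top cell of each library. The triangles alone were computed with 1 CPM added to both levels, so they are not on quite the same scale as the points and squares. Dotted lines mark 1.5-fold either way: no black point lies past them, Eif4ebp1 is nearest at 1.49, and Eif4ebp3, with 31 and 8 UMIs, has the widest bar and a green square past the lower line at 0.621.

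The 21 further genes of cap-dependent initiation and its control were compared between libraries in the same way. The list holds cofactors, poly(A)-binding proteins, eIF4E kinases, partners of 4EHP and the mTORC1 pathway, and 0 of its genes were higher and 1 was lower past 1.5-fold, with a median log2 ratio of -0.03. Of all genes with at least 20 UMIs, 4.32% were higher and 11.3% lower, so these counts are not read as a result about the list. The gene past the limit was Mlst8, an mTOR complex subunit, with 17 control and 3 4E-BP1–cKO UMIs and a ratio of 0.489 (0.0918 to 1.69). The most abundant were Pabpc1, Rptor and Pdcd4. Pabpc1, which encodes the poly(A)-binding protein that joins eIF4G, had 684 and 537 CPM, a ratio of 0.786 (0.730 to 0.845). Rptor, the mTORC1 subunit that presents 4E-BPs to the kinase, had 257 and 219 CPM, a ratio of 0.850 (0.756 to 0.954). Pdcd4, an inhibitor of eIF4A, had 146 and 155 CPM, a ratio of 1.06 (0.920 to 1.22).

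Levels of several members differed with the share of ribosomal protein UMIs in a cell, a share that no member enters. Cells were divided at 2%, 4% and 8%, giving 549, 199, 255 and 144 control and 177, 67, 112 and 89 4E-BP1–cKO cells, and levels were set per 1000000 UMIs outside ribosomal protein and mitochondrial genes. From the lowest to the highest bin, the Eif4g2 level in control cells was 205, 281, 324 and 382, and in 4E-BP1–cKO cells 215, 348, 378 and 423. It rose at each step in both libraries, and the ratio of the end bins was 1.86 (1.59 to 2.18) and 1.97 (1.52 to 2.58). Eif4g3 went the other way, with 300, 298, 238 and 232 in control cells and 229, 309, 227 and 188 in 4E-BP1–cKO cells. Its ratio was 0.774 (0.653 to 0.916) in control and 0.822 (0.600 to 1.12) in 4E-BP1–cKO cells, the only member below 1 in both.

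Eif4a1 levels were 302, 317, 362 and 482 in control and 353, 348, 431 and 507 in 4E-BP1–cKO cells, ratios of 1.60 (1.39 to 1.83) and 1.44 (1.16 to 1.79). Eif4a2 levels were 97.3, 173, 147 and 143 in control and 91.2, 146, 141 and 147 in 4E-BP1–cKO cells, ratios of 1.47 (1.15 to 1.88) and 1.62 (1.06 to 2.5). The helicase genes thus reached similar ratios by different courses: Eif4a2 was low in the lowest bin alone, and Eif4a1 was highest in the top bin. The Eif4a1 share of eIF4A UMIs was lowest in the bin from 2% to 4%, at 64.7% (60.0 to 69.3) in control and 70.5% (62.2 to 77.9) in 4E-BP1–cKO cells, and 75.6% and 79.4% in the bin under 2%.

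Eif4ebp1 levels were 12.5, 19.6, 30.1 and 23.3 in control cells, from 18, 17, 39 and 21 UMIs. In 4E-BP1–cKO cells they were 19.7, 17.8, 41.1 and 41.1, from 8, 5, 21 and 17 UMIs. The ratios of the end bins, 1.86 (0.945 to 3.71) and 2.08 (0.852 to 5.57), had intervals that include 1. Eif4e2 levels were 51.4, 47.3, 70.9 and 82.1 in control and 51.8, 53.3, 95.9 and 91.8 in 4E-BP1–cKO cells, ratios of 1.60 (1.14 to 2.23) and 1.77 (1.01 to 3.18). Eif4ebp2 had ratios of 1.20 (0.823 to 1.75) and 1.07 (0.568 to 2.04). Its intervals include 1 and overlap those of Eif4ebp1 and Eif4e2, so they do not show that it differed from these genes. Eif4g1 had ratios of 1.21 (0.946 to 1.54) and 0.959 (0.625 to 1.47), and Eif4ebp3 2.87 and 2.94 from at most 9 UMIs a bin.

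By the rule of more than 1.5-fold the same way in both libraries, 4 of 10 members were higher in cells with at least 8% than in cells under 2%, namely Eif4ebp1, Eif4ebp3, Eif4e2 and Eif4g2, and 0 were lower. Of 7921 genes with at least 20 UMIs in each library, 20.5% were higher and 17.0% lower. Eif4ebp3, with 8 UMIs in 4E-BP1–cKO cells, is outside those 7921. With a pseudocount of 10 rather than 1 on that scale, Eif4g2 alone was counted. In one random draw with all cells thinned to 872 UMIs before binning, Eif4g2 and Eif4a1 were higher and Eif4g3 lower, so that of the 4 genes only Eif4g2 was called under both of these settings. The median log2 ratio was 0.61 in control and 0.60 in 4E-BP1–cKO cells for the members, and -0.06 and -0.03 for all 7921 genes.

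**Figure D4:**
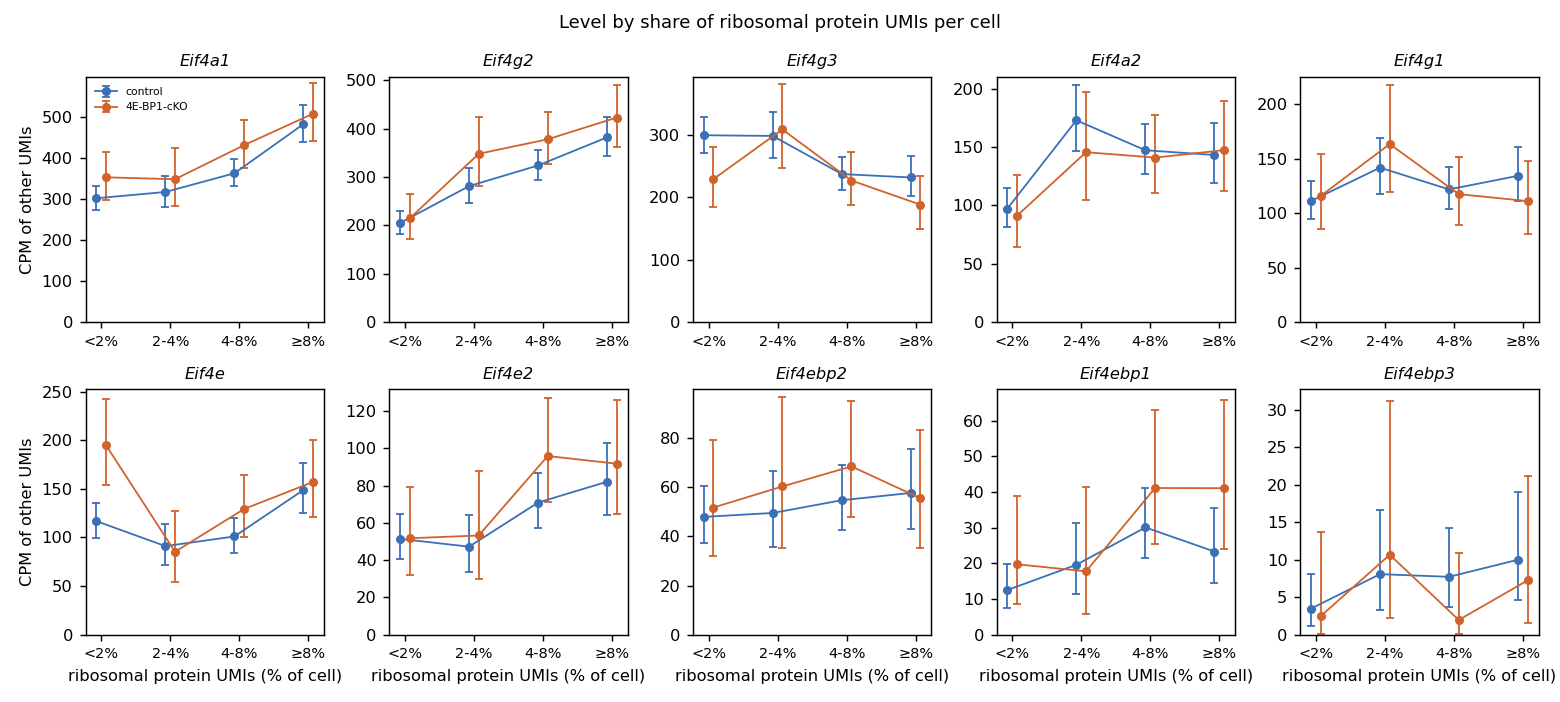
Level of each member per 1000000 UMIs outside ribosomal protein and mitochondrial genes (vertical axis) by share of ribosomal protein UMIs per cell (horizontal axis), with exact 95% Poisson bars for control (blue) and 4E-BP1–cKO (orange). Eif4g2 rises from 205 to 382 and from 215 to 423, Eif4g3 ends lower than it starts, and Eif4e in the lowest bin is 117 in control and 195 in 4E-BP1–cKO cells.

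Depth moved with the ribosomal share: the bins had median depths of 2451, 2309, 5054 and 6520 UMIs in control and 1979, 2461, 4749 and 4683 in 4E-BP1–cKO cells. Among cells with at least 2976 UMIs, the pooled median, those with at least 4% against those under 2% gave an Eif4g2 ratio of 1.62 (1.36 to 1.93) in control and 1.97 (1.40 to 2.84) in 4E-BP1–cKO cells. Among shallower cells it was 2.14 (1.5 to 3.0) in control, but 1.02 (0.549 to 1.79) in 4E-BP1–cKO cells, from 50 and 17 UMIs. Eif4g3 gave 0.709 (0.607 to 0.829) and 0.830 (0.596 to 1.18) in the deeper cells. In the shallower cells Eif4g3 gave 1.10 (0.737 to 1.60) and 0.871 (0.444 to 1.61), from 33 and 14 UMIs in the ribosome-rich cells. The control interval overlaps that of the deeper cells, so it does not show whether the shallower cells differed from them. The Eif4a1 ratio differed with depth in control cells alone: it was 1.53 (1.32 to 1.79) in deeper and 0.883 (0.593 to 1.28) in shallower cells, the latter from 226 and 33 UMIs. In 4E-BP1–cKO cells it was 1.15 (0.890 to 1.5) and 1.35 (0.858 to 2.07), in the opposite order and with overlapping intervals. Between the highest and lowest quartile of depth itself, 0 of 10 members were past 1.5-fold higher and 0 lower in both libraries, where 10.1% of genes were higher and 6.94% lower.

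Gene size also moved with this contrast. Over the 7677 genes with a span in RefSeq, 96.9% of those tested, the median log2 ratio in control cells fell with span, from 0.90 in the shortest quartile to 0.22, -0.20 and -0.61 in the longest, and in 4E-BP1–cKO cells it was 0.89, 0.23, -0.24 and -0.67. Eif4a1, Eif4a2 and Eif4ebp3 belong to the shortest quartile and Eif4g3 to the longest. Eif4a1, with log2 ratios of 0.67 and 0.52, and Eif4a2, with 0.55 and 0.69, lay below the medians of the shortest quartile in both libraries. Eif4ebp3, at 1.30 and 1.25 from few UMIs, lay above them. In the second quartile, Eif4g2 with log2 ratios of 0.89 and 0.98 lay above its medians of 0.22 and 0.23. So did Eif4ebp1, at 0.85 and 1.02, and Eif4e2, at 0.66 and 0.81. In the same quartile Eif4ebp2 had 0.26 and 0.10, and Eif4g1 0.27 and -0.06. Eif4g3, at -0.37 and -0.28, lay above the medians of the longest quartile. Malat1, a nuclear RNA, had a level of 50340 in control and 53550 in 4E-BP1–cKO cells under 2% ribosomal share, and 24682 and 32640 in those with at least 8%. The part of nuclear or intronic RNA in these differences was not tested.

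The composition of the eIF4G family changed accordingly and in the same order of bins in both libraries. Eif4g2 made up 33.3% (30.2 to 36.5) of eIF4G UMIs in control cells under 2% and 51.0% (47.2 to 54.9) in those with at least 8%. In 4E-BP1–cKO cells it made up 38.3% (32.0 to 45.0) and 58.5% (52.7 to 64.2). Eif4g3 made up 48.6% (45.3 to 52.0) and 31.0% (27.5 to 34.7) in control, and 41.0% (34.5 to 47.7) and 26.1% (21.2 to 31.5) in 4E-BP1–cKO cells. For each of these genes the intervals of the end bins do not overlap. In control cells the DAP5 gene and Eif4g3 exchanged rank across the bins, whereas in 4E-BP1–cKO cells their intervals overlapped under 2% and Eif4g2 led at 4% and above. Eif4g1 stayed between 15.4% and 20.7%.

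**Figure D5:**
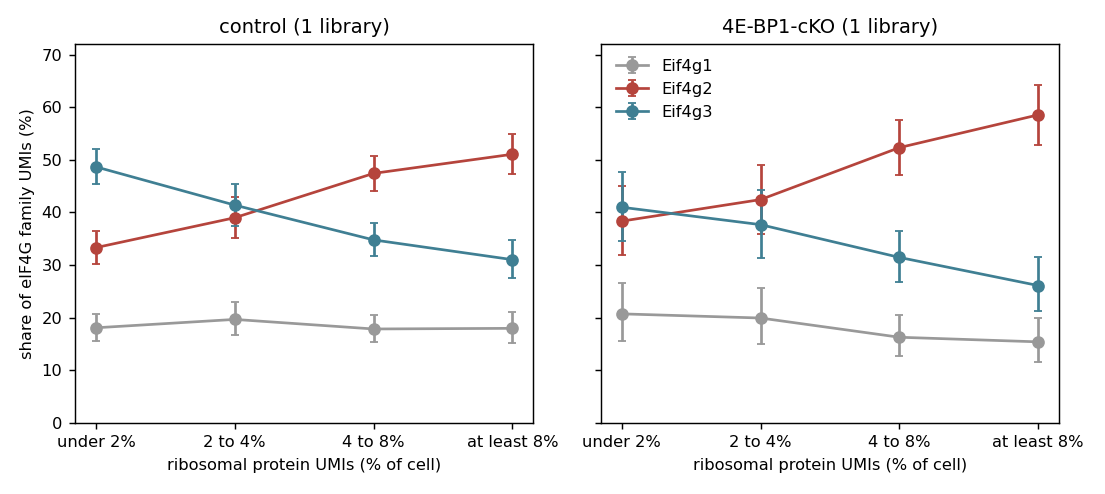
Share of each eIF4G gene in the summed UMIs of Eif4g1, Eif4g2 and Eif4g3 (vertical axis, %) by share of ribosomal protein UMIs per cell (horizontal axis), in the control (left) and 4E-BP1–cKO (right) library, with exact 95% binomial bars. Eif4g2 (red) rises from 33.3% to 51.0% and from 38.3% to 58.5%, Eif4g3 (teal) falls from 48.6% to 31.0% and from 41.0% to 26.1%, and Eif4g1 (grey) stays nearly level.

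The end bins of Eif4e and of Eif4g1 gave ratios on opposite sides of 1 in the 2 libraries. For Eif4e the log2 ratios without the top cell of each library were 0.23 in control and 0.02 in 4E-BP1–cKO cells, against 0.35 and -0.31 with it. The Eif4e level was 117, 91.1, 101 and 149 in control cells and 195, 85.2, 129 and 157 in 4E-BP1–cKO cells. In the cells under 2%, its CPM was 1.67-fold (1.26 to 2.20) higher in the 4E-BP1–cKO library, against ratios of 0.938 (0.568 to 1.5), 1.28 (0.937 to 1.73) and 1.05 (0.768 to 1.42) in the other bins. The cell with 17 Eif4e UMIs lay in that lowest bin. Without the top cell of the bin in each library the ratio was 1.37 (1.01 to 1.85), from 162 and 62 UMIs. In the same bin the 4E-BP UMIs per Eif4e UMI had the lowest value, 0.548 (0.420 to 0.710) in control and 0.380 (0.241 to 0.585) in 4E-BP1–cKO cells. The others had 0.612 to 0.916 and 0.662 to 1.04. The intervals overlap those of the bin of at least 8%, 0.459 to 0.811 and 0.439 to 0.987, so a lowest bin is not established. The 4E-BP1–cKO value of the lowest bin includes the cell with 17 Eif4e UMIs. The 4E-BP UMIs of that library also include those of Eif4ebp1, whose deletion the counts do not check.

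Of the 21 further genes, 2 were higher and 4 lower past 1.5-fold in both libraries in ribosome-rich cells, with median log2 ratios of -0.05 and -0.15. As 20.5% of all 7921 genes were higher and 17.0% lower, these counts are not read as a result about the list. Pabpc1 was 2.20-fold (2.0 to 2.42) and 2.74-fold (2.25 to 3.35) higher, and Eif4b, a cofactor of the helicase, 1.80-fold and 3.38-fold. Both mRNAs are known to carry the pyrimidine-rich start that also marks ribosomal protein mRNAs. Rptor was lower, with ratios of 0.50 (0.418 to 0.595) and 0.360 (0.258 to 0.495), as were Rps6kb1, the S6 kinase gene (0.532 and 0.553), Tsc1, an mTORC1 inhibitor (0.613 and 0.630), and Mknk1, a kinase of eIF4E (0.576 and 0.653).

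Immediate early genes such as Fos and Egr1 are induced within minutes of stimulation, including by cell dissociation, and some members moved with them. Cells were split at early gene shares of 0.960% and 1.77%, giving 421 control and 110 4E-BP1–cKO cells in the lowest tercile. From the lowest to the highest tercile, the Eif4a2 level was 101 and 159 CPM in control, a ratio of 1.58 (1.29 to 1.94), and 48.1 and 146 CPM in 4E-BP1–cKO cells, a ratio of 3.03 (1.72 to 5.84). Eif4a1 had 281 and 388 CPM in control, 1.38-fold (1.22 to 1.56), and 192 and 438 CPM in 4E-BP1–cKO cells, 2.28-fold (1.70 to 3.10). Eif4g2 had ratios of 1.30 (1.13 to 1.49) and 2.01 (1.5 to 2.75). In all, 7 members were higher in both libraries by any amount and 2 lower in both, Eif4e and Eif4g3. Of the 7921 genes, 2067 were higher in both and 3357 lower in both. Some of the 7 were near 1 in control cells, with ratios of 1.01 for Eif4g1, 1.04 for Eif4e2 and 1.05 for Eif4ebp1. Eif4e had ratios of 0.986 (0.790 to 1.23) in control and 0.660 (0.478 to 0.923) in 4E-BP1–cKO cells, and its direction differed with ribosomal share, as given below. Eif4g3 had 0.849 (0.739 to 0.976) and 0.842 (0.632 to 1.14). By the same rule of more than 1.5-fold, 2 of 10 members were higher, Eif4a2 and Eif4ebp3, and 0 lower, where 4.43% of the 7921 genes were higher and 8.0% lower. The Eif4ebp3 ratios, 1.74 (0.656 to 5.08) and 1.99, rest on 21 and 8 UMIs, and the gene is outside those 7921.

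The early gene terciles also differed in ribosomal share, with medians of 1.60% in the lowest and 5.18% in the highest tercile of control cells. Among cells with a ribosomal share of at least 2%, the Eif4a2 ratio was 1.55 (1.21 to 2.0) in control and 2.53 (1.29 to 5.66) in 4E-BP1–cKO cells, and among those under 2% it was 1.11 (0.636 to 1.86) and 3.19 (0.946 to 13.8). Eif4a1 gave 1.31 (1.12 to 1.52) and 3.19 (2.05 to 5.21) at 2% or more, and 1.63 (1.25 to 2.12) and 1.54 (0.940 to 2.53) under 2%. The ratios of both helicase genes were thus above 1 at a ribosomal share of 2% or more in both libraries. Depth differed between these cells too, with medians of 3434 UMIs in the lowest and 6117 in the highest tercile of control cells and of 2027 and 5249 in 4E-BP1–cKO cells, and its part was not tested. Eif4ebp1 had ratios of 1.05 (0.647 to 1.72) and 2.10 (0.823 to 6.85) over all cells, with intervals that overlap widely.

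To find genes with a like pattern, each member with at least 200 UMIs was compared with all other such genes over 16 pools of cells, formed by library, ribosomal bin and depth above or below the median. Pools of a library share its preparation, so these correlations are descriptions. The 3 genes named for each member had the highest r of many genes over 16 pools, so their values are high partly by selection. Some had few UMIs over both libraries, such as Pa2g4 with 210, Gm5420 with 228 and Rnf220 with 234, and the smallest pool held 35282 UMIs of all genes. Eif4e was most like Tank (Pearson r = 0.936), Prr5l (0.893) and Hivep1 (0.886). Eif4g1 was most like Map3k1 (0.945), Col27a1 (0.899) and Qrich1 (0.893). Eif4a1 was most like Socs3 (0.842), Mcl1 (0.813) and Rrad (0.805), and Eif4a2 most like Ccdc59 (0.845), Pa2g4 (0.825) and Wtap (0.818). Eif4g2 was most like Arf6 (0.881), Ppp1r18 (0.870) and Gpi1 (0.851), and Eif4g3 most like Rnf220 (0.901), Wdr37 (0.898) and Senp5 (0.894). Eif4e2 was most like Cct7 (0.840), Tex261 (0.813) and Sowahc (0.798), and Eif4ebp2 most like Gm5420 (0.859), Marc2 (0.813) and Tnfsf13b (0.810). Eif4ebp1 and Eif4ebp3 had fewer than 200 UMIs and were not compared. No other member appeared in these lists. As each list holds only 3 of very many genes, that was likely in advance and is not read as a result.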

How the data were processed

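Droplet single-cell RNA-Seq of sorted spinal microglia was analysed, 1 library per genotype. The authors ran Cell Ranger count 8.0.1 on mm10 and deposited filtered matrices of UMI counts per gene and barcode. The sources used here give neither the annotation release nor the intron setting. Kept barcodes had over 300 detected genes, and mt- genes held less than 5% of their UMIs. Doublets were kept, whereas the study removed them with scDblFinder at the same cutoffs and kept fewer cells of each genotype than here. Scrublet called 2 control and 8 4E-BP1–cKO cells, against 10.5 and 1.58 from the expected rate. Removal of the called cells was an alternative, and it need not take out all doublets. Counts were summed per library or bin of cells. Ratios used summed UMIs over the total, and fold calls used a pseudocount of 1 CPM. Ribosomal protein genes were 84 Rpl and Rps genes. The ratio script was tested on simulated counts. The 10 members and all lists were chosen with earlier results of these data known. The genes named were the members, the 3 most abundant of the 21 pathway genes with those past 1.5-fold, and 3 genes most like each member. In addition Eif4b, Mbp and Malat1 are given with values. Alternatives comprised a 10% mitochondrial limit, a minimum of 500 genes, TMM scaling (edgeR 4.0.16), other totals and pseudocounts, thinning and matching of cell mix. Python 3.11.15, scipy 1.17.1 and scanpy 1.11.5 were used. Depth was 500 to 28109 UMIs per kept control cell and 503 to 35216 per 4E-BP1–cKO cell.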

Additional observations from a re-analysis of the deposited data

Results flagged for a closer look

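Contrasts within each library were set side by side for all 10 members, and 3 were flagged because a member moved in opposite directions in the 2 libraries while at least 1 of the 2 counting intervals did not include 1. With 1 library per genotype the difference between libraries was not tested in any of them. Eif4e was higher in ribosome-rich than in ribosome-poor control cells, with a log2 ratio of 0.35, and lower in 4E-BP1–cKO cells, at -0.31. Without the cell that carried the most Eif4e UMIs in each library these values were 0.23 and 0.02, so the opposite direction rested on 1 cell with 17 Eif4e UMIs. Between the deepest and shallowest quartile of cells, Eif4e had a log2 ratio of -0.57 in control and 0.23 in 4E-BP1–cKO cells, where the shallowest quartile held 41 and 15 Eif4e UMIs. Eif4e2 had a log2 ratio of 1.02 in control and -0.041 in 4E-BP1–cKO cells in the same depth contrast, from 9 and 10 UMIs in the shallowest quartile.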

How the results depend on the processing

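The number of members past 1.5-fold between libraries was 0 and became 1, Eif4ebp1, with TMM factors in place of the total. It was 0 under the other 9 settings, of which leaving out the cell with the most UMIs of a gene was chosen after seeing the data. The settings with a minimum of 1 or of 200 UMIs keep the same ratios and only select members. A count of 0 could not change under them, so they are no check of it. Over 8 settings the log2 ratio of Eif4ebp1 ranged from 0.40 to 0.59, and 9 of 10 members kept their direction under all 8, the exception being Eif4g1 (-0.06 to 0.01). The number of members past 1.5-fold between high and low ribosomal share was 4 and fell to 1 with a pseudocount of 10 CPM. It stayed within 1.5 times of 4 under the other 6 settings, but with thinned cells the 3 genes were Eif4g2 and Eif4a1, higher, and Eif4g3, lower. Detection at the depth of 872 UMIs was also given as an exact average, chosen after seeing that random draws differed. The shares of Eif4ebp1 and Eif4a1 in their families stayed within their intervals under all 4 settings. No replicate could be left out, and no paired analysis was possible because each genotype has 1 library. Depth limits Eif4ebp3 most, with 31 and 8 UMIs.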
